A study of Gallus gallus with 8 samples.

Results

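Wing bud mesoderm of the chick that had been moved into an older wing was compared with ungrafted wing mesoderm of the same age. The comparison used 5 of the 8 RNA sequencing libraries of the series, chosen by their titles, which were 2 libraries of grafted mesoderm (HH24g) and 3 libraries of ungrafted tissue (HH24). HH stands for the Hamburger-Hamilton stage of the embryo. The HH24g cells came from HH20 wing buds of chicks with the genotype CMV-GFP, whose cells carry a green fluorescent protein. A distal strip of 150 µm was freed of its epithelium with trypsin, and cubes of the mesoderm were inserted beneath the apical ectodermal ridge in HH24 hosts of wild type (WT) and recovered after 24 h. The HH24 tissue came from distal wing buds of other, untreated WT embryos. The 3 HH27 libraries held ungrafted WT distal wing buds at the stage that the hosts had reached. They were kept in the fit and give the level in the older surroundings. According to the paper, HH27 tissue came from the opposite wing of the graft hosts. The labels do not say which HH27 and HH24g libraries share hosts, and the fit does not pair them. All eggs were incubated at 37 °C, and each library pooled tissue of several embryos. Genotype, trypsin, cutting and the older wing all separated HH24g from HH24, and their effects cannot be told apart here.

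The distal mesoderm of the wing bud lies under the apical ectodermal ridge, a strip of epithelium that makes fibroblast growth factors (Fgfs) and keeps the mesoderm growing. The mesoderm answers with its own Fgf10 and, as the bud grows out, turns on 5′ Hox genes in an order that runs from upper arm to digits. Cells that leave the ridge's range go on to form cartilage, tendon, dermis and other connective tissue, each with its own matrix proteins and transcription factors.

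The HH24 libraries held 2157683, 3108086 and 1855991 estimated reads and the HH24g libraries 2518089 and 4562111. The share of these reads in transcripts that could be matched to a gene was 45.5%, 9.24% and 53.3% in HH24 replicates 1 to 3, against 67.6% and 61.6% in HH24g. HH24 replicate 2 was therefore shallow. Its effective size after scaling was 128271 reads, where 1 read is worth 7.8 counts per 1000000 scaled reads (CPM), and that of the other 4 libraries was 934614 to 3273297 reads. A single unmatched transcript took 24.2% to 74.3% of the reads in HH24 and 8.62% to 15.2% in HH24g. Pearson's correlation of log2 CPM across genes was 0.85 between HH24 replicates 1 and 3, 0.716 and 0.718 for the pairs with replicate 2 and 0.922 between both HH24g libraries. Genes are not independent replicates. No library repeated another within sampling noise. Each replicate is a pool of tissue, so that p-values measure the spread between pools.

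Collagen XII (COL12A1), a collagen that sits on the surface of collagen fibrils in tendon and dermis, was the only gene called between HH24g and HH24. A gene was called when its log2 fold change exceeded 1 in either direction with an adjusted p under 0.05 by limma voom over 9062 genes, so the background is 0.011% of the genes tested. Its level was 72.8, 85.8 and 79.2 CPM in HH24 replicates 1 to 3 and 213 and 229 CPM in HH24g replicates 1 and 2. Both HH24g values were over every HH24 value, with means of 79.2 ± 6.5 (SD, n = 3) and 221 ± 10.9 CPM (SD, n = 2), a 2.87-fold difference. The log2 fold change was 1.52 ± 0.14 (standard error, as after every ± on a log2 fold change below), with an adjusted p of 0.0234. In HH27 the level was 139, 141 and 165 CPM, under both HH24g libraries.

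Without HH24 replicate 2, COL12A1 kept a log2 fold change of 1.54 ± 0.16 with an adjusted p of 0.0657, and no gene of 9384 was called by limma voom, although 892 genes had an unadjusted p under 0.05 and edgeR and DESeq2 called 11 and 115. Over all settings tried, the adjusted p of COL12A1 ran from 5.34e-14 to 0.219. By limma voom it was not called when any 1 of the 5 HH24 and HH24g libraries was left out, nor without HH27 replicate 2. The level in HH24 replicate 2 rested on 11 reads. COL12A1 had 5 listed RefSeq transcripts, and XM_015284742.1 carried the largest share in every library, from 41.2% to 76%.

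The number of genes called depended on the test. The edgeR quasi-likelihood test called 14 genes (0.154%), 13 higher (0.143%) and 1 lower (0.011%) in HH24g, and 11 (0.117%) without HH24 replicate 2, 9 higher (0.0959%) and 2 lower (0.0213%), with 9 in both sets. DESeq2 called 120 genes (1.32%), 67 higher (0.739%) and 53 lower (0.585%), and 115 (1.23%) without HH24 replicate 2, 70 higher (0.746%) and 45 lower (0.48%), with 90 in both sets, 55 higher and 35 lower. All 14 genes of edgeR were among those of DESeq2. In the limma voom fit 472 genes (5.21%) were higher and 548 (6.05%) lower at an unadjusted p under 0.05. Both HH24g values were over all 3 HH24 values in 1468 genes (16.2%) and under them in 984 (10.9%). Without HH24 replicate 2 the shares at an unadjusted p under 0.05 were 3.86% and 5.65% of 9384 genes. No gene but COL12A1 passed the adjusted limit of the limma voom fit, and the levels of the others are given as measured.

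**Figure D1:**
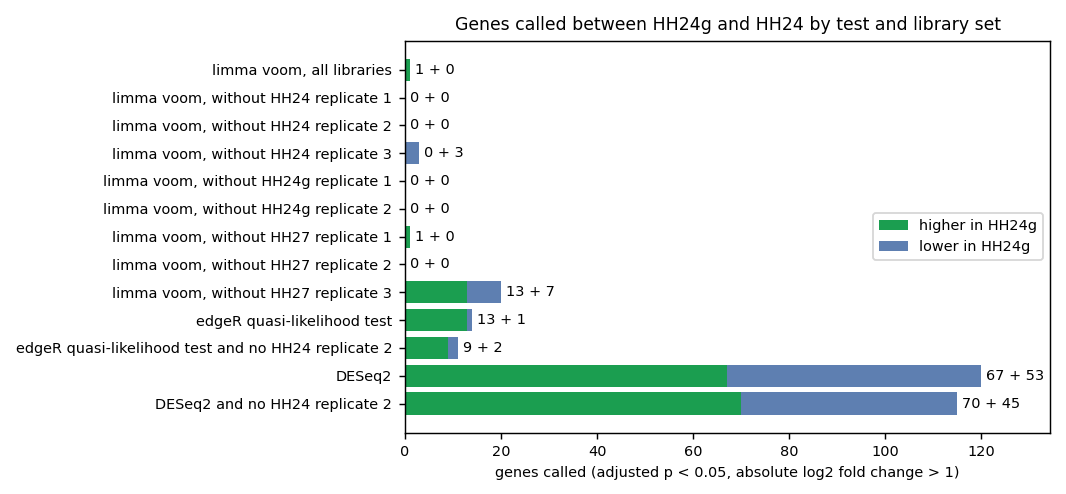
Number of genes called between HH24g and HH24 (x axis, adjusted p under 0.05 and absolute log2 fold change over 1) for each test and set of libraries (rows), with genes higher in HH24g in green and lower in blue. The limma voom fit called 1 gene with all libraries and 0 without HH24 replicate 2, edgeR 14 and 11, and DESeq2 120 and 115.

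Among fibrous matrix genes more were higher than lower in the grafts. Of 32 tested genes for collagens and other fibrous matrix proteins, 9 were higher and 4 lower at an unadjusted p under 0.05 (8 and 4 without HH24 replicate 2), against the background of 5.21% and 6.05% of all genes. In 16 genes both HH24g libraries were over all HH24 libraries and in 2 they were under them, against 16.2% and 10.9% of all genes. The list's median log2 fold change was 0.38 (0.39 without HH24 replicate 2), beside 0.02 for all genes tested. This and the other gene lists were chosen with earlier results of these data known. Their counts beside the background therefore describe the data and test nothing. In bulk tissue, fewer cells of a type and less RNA per cell cannot be told apart.

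Periostin (POSTN), a matrix protein of the periosteum and of young connective tissue, measured 41.7, 31.2 and 27.4 CPM in HH24 and 84.4 and 88.9 CPM in HH24g. The groups did not overlap, and the log2 fold change was 1.36 ± 0.26 (1.36 without HH24 replicate 2). HH27 measured 74.3, 107 and 88.1 CPM, a range that took in both graft values. Decorin (DCN), a proteoglycan that binds collagen fibrils, measured 135, 85.8 and 138 CPM in HH24 and 229 and 257 CPM in HH24g, with a log2 fold change of 0.88 ± 0.15 (0.85). Osteoglycin (OGN), another small proteoglycan of the matrix, measured 28.9, 46.8 and 42.1 CPM and 68.9 and 89.2 CPM, 1.14 ± 0.39 on the log2 scale (1.18). Here and below, a value in parentheses after a log2 fold change is that without HH24 replicate 2.

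The fibril-forming collagens differed less. COL1A2, a chain of collagen I, measured 1397, 967 and 1156 CPM in HH24 and 2050.4 and 1602 CPM in HH24g, 0.55 ± 0.14 on the log2 scale (0.49). COL3A1, collagen III of loose connective tissue, measured 90.9, 46.8 and 65.5 CPM and 121 and 109 CPM, 0.60 ± 0.18 (0.57). In both genes the lowest HH24 value was that of replicate 2 and the grafts were over all 3. Fibrillin 2 (FBN2), a microfibril protein of embryonic tissue, measured 134, 148 and 136 CPM in HH24 and 227 and 224 CPM in HH24g (0.72 ± 0.20, 0.74 without HH24 replicate 2). COL15A1 and CTHRC1, a secreted protein with a collagen repeat, had the same order at low levels of 4.28 to 7.8 against 18 and 31.2 CPM and 7.8 to 16 against 26 and 25.7 CPM, with log2 fold changes of 2.25 ± 0.96 (2.32) and 0.78 ± 0.28 (0.77).

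A few matrix genes had the opposite order. HAS2, the enzyme that makes hyaluronan in the early limb bud, measured 43.9, 23.4 and 36.2 CPM in HH24 and 11.5 and 18.9 CPM in HH24g, −1.31 ± 0.30 on the log2 scale (−1.34), without overlap. HAS2 was called by DESeq2 with and without HH24 replicate 2. COL16A1 measured 44.9, 39 and 27.4 CPM and 22 and 19.9 CPM (−0.77 ± 0.26, −0.75 without HH24 replicate 2). LUM, the proteoglycan lumican (−0.49 ± 0.15, −0.57), and LOXL1, an enzyme that cross-links elastin (−0.84 ± 0.29, −0.84), had negative log2 fold changes but overlapping libraries.

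MXRA5, FAP and MEOX2 were among the 14 genes that edgeR and DESeq2 both called. MXRA5, a secreted adhesion protein of the matrix, measured 30, 31.2 and 35.2 CPM in HH24 and 95.3 and 88.6 CPM in HH24g. The log2 fold change was 1.46 ± 0.17 (1.47), and the limma voom adjusted p was 0.0585. FAP, a surface protease of activated fibroblasts, measured 22.5, 23.4 and 20.5 CPM and 58.9 and 66.6 CPM, 1.52 ± 0.24 on the log2 scale (1.54), with an adjusted p of 0.0737. HH27 tissue held 36.8, 35.9 and 41.3 CPM of MXRA5 and 24.5, 29.1 and 31.7 CPM of FAP. The grafts thus lay over both ungrafted stages for each gene. MEOX2, a homeobox gene of the somite and limb muscle, measured 1.07, 0 and 2.93 CPM in HH24, 39.9 and 60.5 CPM in HH24g and 3.07, 0.971 and 3.12 CPM in HH27. These levels rest on 4 reads in all HH24 libraries against 278 in HH24g, a ratio of 27.5 with an exact 95% interval of 10.6 to 102 for counting error alone. Such intervals are given for MEOX2 and, below, for OSR2, TGFB2 and SLC14A2, which were picked with their low HH24 counts known. That the intervals exclude an equal ratio follows from this choice and tests nothing. MEOX2 was called by edgeR with all libraries but not without HH24 replicate 2, and by DESeq2 in both. RASL11B, a small GTPase, was also among the 14 genes and was singled out after its values were seen. It had a similar pattern, with 39.6, 31.2 and 35.2 CPM in HH24, 93.8 and 99.6 CPM in HH24g and 43.7, 44.7 and 51.4 CPM in HH27 (1.37 ± 0.17, 1.37 without HH24 replicate 2). The edgeR test called RASL11B with and without HH24 replicate 2.

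Regulators of tendon, dermis and other connective tissue had higher levels in the grafts in part. Of 15 tested genes, 9 were higher and 0 lower at an unadjusted p under 0.05 (7 and 0 without HH24 replicate 2), against 5.21% and 6.05% of all genes. In 10 of the 15 both HH24g libraries were over all HH24 libraries, and in 0 under them, against 16.2% and 10.9% of all genes. The median log2 fold change was 0.75 (0.77). This list too was chosen with earlier results of these data known, so its counts are no independent support. In addition, MEOX2, OSR2, AFF3, EBF1 and MKX passed the filter on low counts only through their HH24g levels. A higher level in the grafts was thus built into the selection of these members. The summed level of the list was 767, 834 and 711 CPM in HH24, 1085 and 1187 CPM in HH24g and 695 to 914 CPM in HH27.

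EBF1, a transcription factor of connective tissue and blood precursors, measured 7.49, 15.6 and 14.7 CPM in HH24, 31.4 and 24.1 CPM in HH24g and 2.3, 0.971 and 3.64 CPM in HH27, 1.24 ± 0.36 on the log2 scale for the grafts against HH24 (1.26). Scleraxis (SCX), the marker of tendon progenitors, measured 16, 23.4 and 12.7 CPM in HH24 and 29.9 and 25.4 CPM in HH24g (0.86 ± 0.34, 0.90 without HH24 replicate 2), and 11.5, 7.77 and 5.45 CPM in HH27. For both genes the grafts were the highest group and HH27 the lowest. OSR2, a zinc finger factor of irregular connective tissue in the limb, was near the limit of counting, with 2 reads in all HH24 libraries and 42 in HH24g, a ratio of 8.3 (exact 95% interval 2.16 to 70.8, counting error alone). AFF3, a nuclear protein linked to limb malformation in man, measured 5.35, 0 and 6.85 CPM in HH24, 18 and 30.2 CPM in HH24g and 1.53, 0 and 0.779 CPM in HH27 (1.97 ± 0.68, 1.92).

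The T-box genes TBX15 and TBX18 differed little but without overlap. TBX15, a factor of limb skeleton and dermis, measured 214, 187 and 185 CPM in HH24 and 272 and 284 CPM in HH24g (0.49 ± 0.11, 0.49). TBX18, a factor of mesenchyme, measured 153, 164 and 158 CPM and 208 and 212 CPM (0.42 ± 0.12, 0.43). ZFHX4, a large zinc finger and homeobox factor, measured 144, 140.3 and 134 CPM and 205 and 262 CPM (0.75 ± 0.18, 0.77). EYA2, a transcriptional partner of DNA-binding proteins in connective tissue, had a log2 fold change of 1.26 ± 0.32 (1.34) but overlapped, since HH24 replicate 2 measured 54.6 CPM.

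PDGFRA, the receptor for platelet-derived growth factor on fibroblast precursors, had higher levels in the grafts than in either stage. It measured 103, 101 and 108 CPM in HH24, 215 and 235 CPM in HH24g and 132, 113 and 165 CPM in HH27, with a log2 fold change of 1.09 ± 0.18 (1.10) and an adjusted p of 0.0786. DESeq2 called PDGFRA with and without HH24 replicate 2. PRRX1, the homeobox gene that marks early limb mesenchyme, measured 186, 195 and 262 CPM in HH24 and 319 and 308 CPM in HH24g (0.51 ± 0.15, 0.50). TWIST1, a factor of undifferentiated mesenchyme, overlapped, with 105, 62.4 and 99.8 CPM and 108 and 97.8 CPM and a log2 fold change of 0.03 ± 0.14.

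Cartilage genes did not share a direction. SOX9, the master regulator of cartilage, was scarce, with 6.42, 0 and 3.91 CPM in HH24, 2.99 and 3.36 CPM in HH24g and 12.6, 11.7 and 20 CPM in HH27. COL2A1, the main cartilage collagen, measured 23.5, 46.8 and 25.4 CPM and 21.5 and 22 CPM (−0.23 ± 0.23, −0.18), a difference smaller than the spread among the HH24 libraries. LECT1 (chondromodulin), a matrix protein of cartilage that limits vessel growth, measured 80.2, 125 and 88 CPM in HH24, 189 and 171 CPM in HH24g and 97.7, 91.3 and 115 CPM in HH27. Both graft values were over all 6 values of the ungrafted stages, with a log2 fold change against HH24 of 1.04 ± 0.15 (1.08) and an adjusted p of 0.0737. SOX8 (1.75 ± 0.69, 1.87) was higher and CHRDL1, a secreted Bmp antagonist (−1.17 ± 0.49, −1.09), lower at an unadjusted p under 0.05, both with overlap. Of 11 tested cartilage genes 2 were higher and 1 lower at that limit (1 and 0 without HH24 replicate 2), beside 5.21% and 6.05% of all genes. The list's median log2 fold change was 0.35 (0.19).

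**Figure D2:**
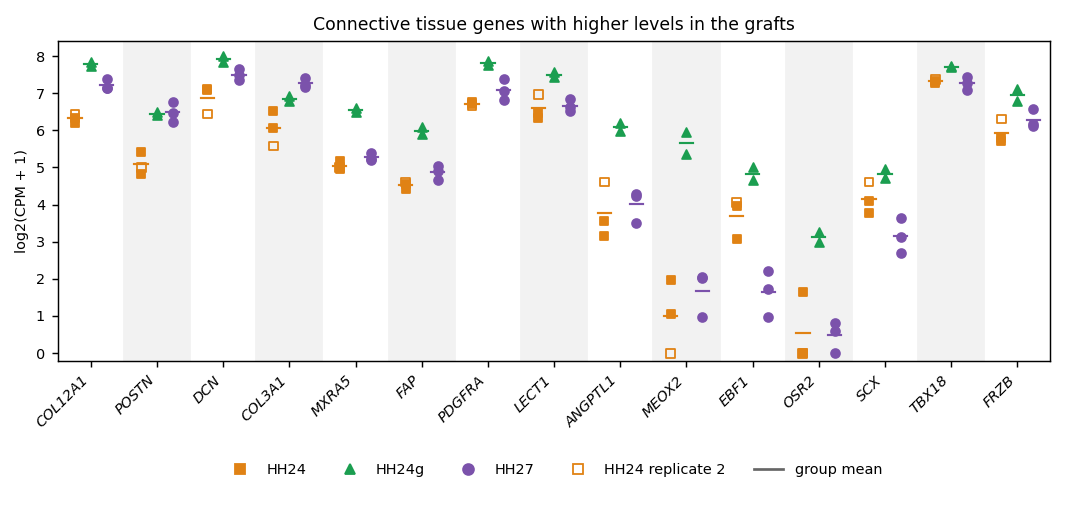
Levels of 15 connective tissue genes in each library on a log2(CPM + 1) axis, with HH24 as orange squares (replicate 2 open), HH24g as green triangles, HH27 as purple circles and a short line at each group's mean. COL12A1, MXRA5, FAP, PDGFRA and LECT1 are higher in both HH24g libraries than in all 6 others, while POSTN lies within the HH27 range in HH24g.

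Several Hox genes of the distal limb had lower levels in the grafts. Of 10 tested genes of the distal Hox list, which also holds neighbours of the HoxD cluster, 0 were higher and 6 lower at an unadjusted p under 0.05, with and without HH24 replicate 2, against 5.21% and 6.05% of all genes. The same number, 6, had both HH24g libraries under all HH24 libraries, against 10.9% of all genes. The median log2 fold change was −0.83 (−0.75). The summed level was 677, 865 and 556 CPM in HH24, 364 and 405 CPM in HH24g and 1091 to 1148 CPM in HH27.

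HOXD12, which is active in the forearm and digit domains, measured 104, 125 and 97.8 CPM in HH24 and 51.4 and 40.3 CPM in HH24g, a 2.29-fold difference (−1.20 ± 0.18 on the log2 scale, −1.17 without HH24 replicate 2) with an adjusted p of 0.0737. Its HH27 level was 173, 221 and 195 CPM, so that the grafts were under both ungrafted stages. HOXA13, the gene of the digit territory, measured 42.8, 39 and 22.5 CPM in HH24, 7.99 and 15.3 CPM in HH24g and 28.4, 22.3 and 34 CPM in HH27 (−1.37 ± 0.40, −1.35). The grafts were again the lowest group, though their 2 values differed about as much as the gap to the lowest HH24 value. EVX1, a homeobox gene next to HOXA13, measured 33.2, 39 and 21.5 CPM in HH24, 6.49 and 7.03 CPM in HH24g and 16.9, 14.6 and 15.6 CPM in HH27 (−1.97 ± 0.30, −1.93), with an adjusted p of 0.0737.

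HOXA11, HOXA10 and HOXD11, of the forearm and upper arm domains, had the same direction against HH24 and different positions against HH27. HOXA11 measured 83.5, 156 and 107 CPM in HH24, 50.9 and 53.2 CPM in HH24g and 37.2, 35 and 27 CPM in HH27 (−0.91 ± 0.19, −0.86 for HH24g against HH24). HOXA10 measured 46, 54.6 and 37.2 CPM, 27.5 and 27.8 CPM and 20.3, 19.4 and 15.1 CPM in the same order (−0.60 ± 0.20, −0.57). The grafts therefore lay between HH24 and HH27 for both genes. HOXD11 measured 87.7, 140.3 and 72.4 CPM in HH24, 53.4 and 46.7 CPM in HH24g and 93.5, 90.3 and 76.4 CPM in HH27 (−0.74 ± 0.19, −0.68), with the grafts lowest. HOXA9, which was counted with proximal genes, measured 118, 164 and 109 CPM in HH24 and 81.4 and 81.3 CPM in HH24g (−0.52 ± 0.16, −0.47).

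HOXD13 and its neighbour EVX2 overlapped between grafts and HH24. HOXD13 measured 146, 195 and 50.9 CPM in HH24 and 31.4 and 62.9 CPM in HH24g (−0.94 ± 0.47, −0.82), and its HH24 values spread by more than the difference between the groups. EVX2 measured 15, 15.6 and 2.93 CPM and 4.49 and 8.55 CPM, and its log2 fold change of −0.06 ± 0.63 turned to 0.05 without HH24 replicate 2. Both genes were far higher in HH27, with 391, 422 and 439 CPM for HOXD13 and 87.4, 76.7 and 84.4 CPM for EVX2.

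GBX2, a homeobox gene of the distal mesoderm, measured 167, 249 and 199.5 CPM in HH24, 102 and 68.4 CPM in HH24g and 36, 30.1 and 30.4 CPM in HH27. The 3 groups did not overlap, and the log2 fold change against HH24 was −1.21 ± 0.19 (−1.17) with an adjusted p of 0.0779. LHX2, a LIM homeobox gene that lets the mesoderm answer to the ridge, measured 349.9, 312 and 369.7 CPM in HH24 and 288 and 269.8 CPM in HH24g (−0.35 ± 0.09, −0.37), against 515, 495 and 474 CPM in HH27. LHX9, its relative, overlapped between HH24 (532, 686 and 827 CPM) and HH24g (793 and 783 CPM). LMX1B, which sets dorsal identity, measured 127, 179 and 115 CPM and 75.9 and 95.6 CPM (−0.53 ± 0.19, −0.48). TBX5, the gene that marks the forelimb, measured 166, 46.8 and 139.9 CPM in HH24 and 102 and 120.1 CPM in HH24g (−0.34 ± 0.22, −0.43). Its groups overlapped because of HH24 replicate 2, which held 6 reads of it. Without that library its unadjusted p by limma voom was 0.0196.

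Genes of the Fgf loop between mesoderm and ridge were lower in the grafts in part. FGF10, the mesodermal signal to the ridge, measured 38.5, 78 and 44 CPM in HH24, 15.5 and 14.7 CPM in HH24g and 32.6, 35 and 23.4 CPM in HH27. Both graft values were under all others, with a log2 fold change against HH24 of −1.51 ± 0.27 (−1.46), an adjusted p of 0.0963 and a DESeq2 call with and without HH24 replicate 2. FGF8, which the ridge makes, measured 15, 0 and 16.6 CPM in HH24 and 4.99 and 5.19 CPM in HH24g (−1.55 ± 0.45, −1.62), with overlap because HH24 replicate 2 was listed at 0.

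Of the inhibitors that Fgf signalling induces as feedback, SPRY2, SPRY4, IL17RD, DUSP6 and DUSP4 had lower levels, and SPRY1 (0.30 ± 0.33, 0.23) and SPRED1 (−0.01 ± 0.14, 0.01) overlapped. SPRY2 measured 70.6, 62.4 and 54.8 CPM in HH24 and 26.5 and 31.8 CPM in HH24g (−1.07 ± 0.18, −1.06), against 44.8, 43.7 and 49.6 CPM in HH27, and SPRY4 measured 24.6, 15.6 and 35.2 CPM and 15.5 and 11.6 CPM (−1.18 ± 0.27, −1.19). IL17RD (Sef), a membrane inhibitor of Fgf receptors, measured 845, 779.6 and 928 CPM in HH24, 557 and 503 CPM in HH24g and 511, 433 and 478 CPM in HH27. Its log2 fold change of −0.73 ± 0.10 (−0.75) had an adjusted p of 0.0737, and the grafts lay near the HH27 level. The phosphatases DUSP6 (302, 265 and 353 CPM in HH24, 235 and 209 CPM in HH24g) and DUSP4 (64.2, 54.6 and 58.7 CPM in HH24, 46.4 and 34.8 CPM in HH24g) had log2 fold changes of −0.54 ± 0.12 (−0.57) and −0.64 ± 0.18 (−0.65).

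Other members of the list did not follow them. ETV1, an Ets factor downstream of Fgf, measured 77, 93.6 and 86.1 CPM in HH24 and 116 and 123 CPM in HH24g (0.53 ± 0.15, 0.55), and FGFRL1, a receptor without a kinase domain, 8.56, 7.8 and 6.85 CPM and 18 and 14.4 CPM (0.94 ± 0.40, 0.98). Of 17 tested genes, 2 were higher and 6 lower at an unadjusted p under 0.05 (1 and 6 without HH24 replicate 2), against 5.21% and 6.05% of all genes, and 4 and 7 did not overlap, against 16.2% and 10.9%. The median log2 fold change was −0.30 (−0.33), and the summed level was 2046 to 2285 CPM in HH24, 1688 and 1667 CPM in HH24g and 1751 to 1755 CPM in HH27. IL17RD, the member with the highest level, weighed most in that sum. The list was drawn widely and also held CANX and MKX. MKX was counted with the connective tissue regulators as well and was among the 4 higher genes without overlap.

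HAND2, a factor of the posterior mesoderm that acts with Shh, measured 113, 117 and 68.5 CPM in HH24, 35.4 and 27.2 CPM in HH24g and 101, 98.1 and 68.3 CPM in HH27, −1.56 ± 0.32 on the log2 scale against HH24 (−1.52). Both graft values were under all 6 others. GAS1, a membrane protein that binds Shh, had the opposite order, with 32.1, 23.4 and 22.5 CPM in HH24 and 62.9 and 46.7 CPM in HH24g (0.97 ± 0.30, 0.97). Of 10 tested genes of the Shh pathway, HAND2 was the 1 lower and GAS1 the 1 higher at an unadjusted p under 0.05. Over all genes, 6.05% were lower and 5.21% higher at that limit. SHH itself did not pass the filter on low counts.

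Wnt genes went both ways. The ligands WNT5A, which directs outgrowth, and WNT11 were lower, with 38.5, 133 and 38.1 CPM against 19 and 30.9 CPM (−0.68 ± 0.29, −0.59) and 23.5, 15.6 and 23.5 CPM against 8.98 and 12.5 CPM (−1.08 ± 0.28, −1.09). TCF7, a nuclear effector of Wnt, measured 53.5, 62.4 and 35.2 CPM in HH24 and 19 and 15.9 CPM in HH24g (−1.37 ± 0.34, −1.33). The secreted Wnt inhibitors differed among themselves. FRZB measured 51.4, 78 and 54.8 CPM in HH24, 109.8 and 136 CPM in HH24g and 69, 70.9 and 94 CPM in HH27 (1.18 ± 0.22, 1.22), and SFRP1 measured 43.9, 23.4 and 47.9 CPM, 69.4 and 72.7 CPM and 93.9, 98.1 and 111 CPM (0.65 ± 0.19, 0.63), both higher in the grafts than in HH24 without overlap. SFRP2 (0.38 ± 0.28, 0.42), WIF1 (0.33 ± 0.21, 0.33) and DKK3 (0.25 ± 0.40, 0.25) were not at an unadjusted p under 0.05. NOTUM, an enzyme that inactivates Wnt ligands, overlapped between the groups (−0.60 ± 0.38, −0.72) and was at that limit without HH24 replicate 2 and not with it.

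LGR5, a receptor that strengthens Wnt signals, measured 47.1, 54.6 and 31.3 CPM in HH24, 63.4 and 126 CPM in HH24g and 266, 304 and 364 CPM in HH27 (1.26 ± 0.45, 1.31), which places the grafts between both stages. LGR4 measured 132, 109 and 115 CPM in HH24 and 164 and 163 CPM in HH24g (0.42 ± 0.13, 0.41). The receptors FZD10 (−0.73 ± 0.31, −0.80), ROR2 (−0.51 ± 0.18, −0.52) and KREMEN1 (−0.48 ± 0.15, −0.48) had negative log2 fold changes, of which only KREMEN1 did not overlap. DACT1, an intracellular Wnt modulator outside the list, was singled out after its values were seen and measured 11.8, 7.8 and 22.5 CPM in HH24, 58.4 and 49.2 CPM in HH24g and 10.3, 6.8 and 15.1 CPM in HH27 (1.66 ± 0.37, 1.63). Over the Wnt list, 4 of 27 tested genes were higher and 6 lower at an unadjusted p under 0.05 (5.21% and 6.05% of all genes), 8 and 5 did not overlap (16.2% and 10.9%), and the median log2 fold change was −0.16 (−0.11).

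Of the Bmp genes, BMP7, MSX2 and BAMBI had graft levels near those of HH24 and far from those of HH27. The ligand BMP5 was instead higher in the grafts than in HH24 without overlap (1.07 ± 0.55, 1.02), at low counts and not at an unadjusted p under 0.05. BMP7 measured 213, 304 and 154 CPM in HH24, 155 and 169 CPM in HH24g and 402, 428 and 386 CPM in HH27. MSX2, a Bmp target, measured 56.7, 15.6 and 45 CPM, 45.9 and 44 CPM and 110.0, 129 and 132 CPM in the same order. BAMBI, a decoy receptor, measured 57.8, 46.8 and 58.7 CPM, 43.4 and 53.5 CPM and 173, 238 and 163 CPM. For BMP7, MSX2 and BAMBI the graft values fell within or next to the HH24 range, with log2 fold changes against HH24 of −0.21 ± 0.17, −0.12 ± 0.24 and −0.25 ± 0.26. BMP4 (56.7, 23.4 and 43 CPM in HH24, 26 and 22.3 CPM in HH24g) and its target MSX1 (126, 78 and 129 CPM and 86.8 and 62 CPM) had log2 fold changes of −1.02 ± 0.25 (−1.05) and −0.79 ± 0.21 (−0.84), in both cases with the value of HH24 replicate 2 within the HH24g range.

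NBL1, a secreted Bmp antagonist, measured 137, 46.8 and 115 CPM in HH24, 259 and 239.8 CPM in HH24g and 223, 189 and 252 CPM in HH27 (1.06 ± 0.21, 0.99). The receptors BMPR1A (0.41 ± 0.10, 0.43) and BMPR2 (0.32 ± 0.13, 0.27) were also higher without overlap, by smaller amounts. Of 23 tested Bmp genes 3 were higher and 2 lower at an unadjusted p under 0.05 (5.21% and 6.05% of all genes), 9 and 0 did not overlap (16.2% and 10.9%), and the median log2 fold change was 0.09 (0.10).

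Of 18 tested Tgf-beta genes 6 were higher and 1 lower in the grafts without overlap (16.2% and 10.9% of all genes), with 4 and 1 at an unadjusted p under 0.05 (5.21% and 6.05%) and a median log2 fold change of 0.31 (0.33). TGFB2, a ligand, rested on 5 reads in all HH24 libraries and 73 in HH24g, a ratio of 5.77 (exact 95% interval 2.36 to 18.3, counting error alone), and measured 4.98, 6.8 and 5.97 CPM in HH27. TGFB3 measured 69.5, 39 and 61.6 CPM in HH24 and 85.4 and 80 CPM in HH24g (0.35 ± 0.14, 0.33). TGFBI, a matrix protein named for its induction by the ligand, measured 535, 343 and 519 CPM, 743 and 649 CPM and, in HH27, 413, 418 and 469.9 CPM (0.46 ± 0.13, 0.39). The grafts were the highest group for these 3 genes. The co-receptor TGFBR3 measured 15, 7.8 and 15.6 CPM in HH24 and 27.5 and 36 CPM in HH24g (1.05 ± 0.30, 1.05), and the activin receptor listed as ATVR1 had a log2 fold change of −0.51 ± 0.22 (−0.57) with overlap.

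Genes that handle retinoic acid, a signal of the proximal limb, did not share a direction. CYP26A1, which degrades retinoic acid in the distal bud, measured 20.3, 31.2 and 28.4 CPM in HH24, 8.98 and 4.58 CPM in HH24g and 11.5, 16.5 and 18.2 CPM in HH27 (−2.03 ± 0.42, −2.05), with the grafts lowest. ALDH1A3, which makes retinoic acid, measured 2.14, 0 and 2.93 CPM, 24.5 and 19.6 CPM and 5.75, 9.71 and 10.9 CPM (2.77 ± 0.84, 2.83), with the grafts highest. CRABP1, which binds retinoic acid in the cell, measured 44.9, 23.4 and 40.1 CPM, 106 and 88.3 CPM and 29.1, 9.71 and 23.1 CPM (1.19 ± 0.31, 1.16), again highest in the grafts. STRA6, a receptor for the carrier of retinol, measured 26.7, 46.8 and 32.3 CPM in HH24 and 25 and 18.6 CPM in HH24g (−0.55 ± 0.23, −0.51). Over the 13 tested genes of proximal identity and retinoic acid, 2 were higher and 3 lower at an unadjusted p under 0.05. Over all genes the shares were 5.21% and 6.05%. The list's median log2 fold change was −0.02 (0.01).

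**Figure D3:**
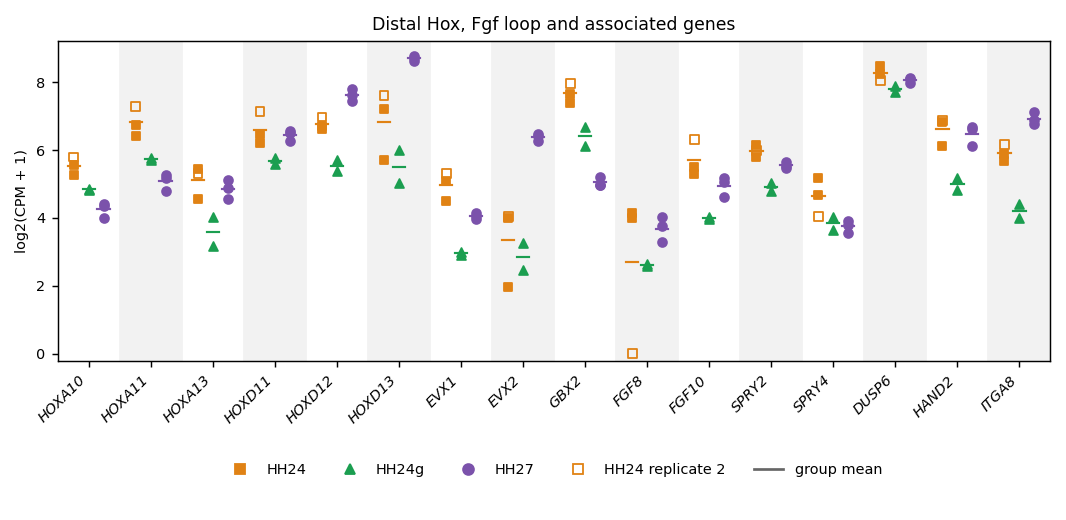
Levels of 16 distal Hox, Fgf loop and associated genes in each library on a log2(CPM + 1) axis, with HH24 as orange squares (replicate 2 open), HH24g as green triangles, HH27 as purple circles and a line at each group's mean. HOXD12, FGF10, HAND2 and ITGA8 are lower in both HH24g libraries than in all 6 others, and HOXD13 and EVX2 overlap between HH24g and HH24.

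ITGA8, an integrin subunit of mesenchyme that binds matrix ligands, was the 1 gene lower in HH24g that both edgeR and DESeq2 called. It measured 50.3, 70.2 and 57.7 CPM in HH24, 15 and 20.2 CPM in HH24g and 137, 109 and 118 CPM in HH27. The grafts were 3.03-fold under HH24 (−1.60 ± 0.23 on the log2 scale, −1.58 without HH24 replicate 2), with a limma voom adjusted p of 0.0737. Without HH24 replicate 2 DESeq2 called ITGA8 and edgeR did not. VEGFD, a growth factor for lymphatic vessels that DESeq2 called and limma voom called in 4 other settings, for which it was singled out, measured 255, 234 and 207 CPM in HH24, 109 and 98.7 CPM in HH24g and 304, 298 and 208 CPM in HH27 (−1.16 ± 0.22, −1.15).

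Among guidance and chemokine genes, 3 of 28 tested were higher and 6 lower at an unadjusted p under 0.05 (1 and 4 without HH24 replicate 2, beside 5.21% and 6.05% of all genes), 7 and 9 did not overlap (16.2% and 10.9%), and the median log2 fold change was 0.01 (0.01). EPHA4, an ephrin receptor of the limb bud, measured 308, 304 and 265 CPM in HH24, 182 and 189 CPM in HH24g and 168, 174 and 149.6 CPM in HH27 (−0.63 ± 0.11, −0.61). HGF, the factor that draws muscle precursors into the limb, measured 81.3, 140.3 and 108 CPM, 68.4 and 48.9 CPM and 10.7, 6.8 and 4.16 CPM (−0.78 ± 0.24, −0.74), with the grafts between both stages. ROBO1, a receptor for Slit proteins, measured 84.5, 54.6 and 81.2 CPM in HH24 and 138 and 146 CPM in HH24g (0.80 ± 0.17, 0.78). The ligand SLIT3 (0.56 ± 0.23, 0.54) and the chemokine receptor CXCR4 (1.95 ± 0.60, 2.13) were also higher without overlap, and EFNA2 (−0.52 ± 0.17, −0.48), EFNB1 (−0.25 ± 0.09, −0.23), SEMA3D (−0.38 ± 0.15, −0.37) and UNC5B (−0.59 ± 0.25, −0.56) lower.

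Cell cycle genes were close to level, with a median log2 fold change of 0.09 (0.05) over 32 tested genes, 3 higher and 3 lower at an unadjusted p under 0.05 (5.21% and 6.05% of all genes). CCND1, the D cyclin that carries cells from G1 into S phase, measured 165, 164 and 188 CPM in HH24, 281 and 291 CPM in HH24g and 429.6, 459 and 406 CPM in HH27. The 3 groups did not overlap, and the log2 fold change against HH24 was 0.70 ± 0.11 (0.70) with an adjusted p of 0.0737. CCND2 had the opposite order, with 38.5, 46.8 and 32.3 CPM in HH24 and 25 and 17.4 CPM in HH24g (−0.84 ± 0.27, −0.81). CDKN1C, an inhibitor of cyclin kinases, measured 37.4, 39 and 37.2 CPM in HH24, 40.4 and 42.8 CPM in HH24g and 14.9, 12.6 and 18.4 CPM in HH27 (0.14 ± 0.18, 0.16). The mitotic genes AURKB (0.55 ± 0.15, 0.56) and BUB1 (0.24 ± 0.10, 0.23) were higher and the replication genes MCM2 (−0.28 ± 0.11, −0.26) and MCM5 (−0.48 ± 0.12, −0.48) lower without overlap. MKI67, a marker of dividing cells, overlapped, with 717, 343 and 524 CPM in HH24 and 721 and 552 CPM in HH24g.

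Injury and stress genes did not share a direction, and the list medians were near or over 0. Log2 fold changes over and under 0 numbered 7 and 3 in the injury list and 9 and 9 in the heat shock list. In the hypoxia list they numbered 11 and 10. Few genes were at an unadjusted p under 0.05. Of 10 tested immediate early and injury genes 1 was higher and 2 lower at an unadjusted p under 0.05, with a median log2 fold change of 0.35 (0.39). The shares over all genes were 5.21% and 6.05%, here and for the lists that follow in this paragraph. EGR1, which is induced within minutes of a stimulus, measured 9.63, 15.6 and 10.8 CPM in HH24 and 5.49 and 5.5 CPM in HH24g (−0.94 ± 0.32, −0.91), and GADD45A, a gene of DNA damage, 32.1, 62.4 and 24.5 CPM and 19 and 17.7 CPM (−0.68 ± 0.24, −0.62). KLF6 measured 21.4, 15.6 and 17.6 CPM in HH24, 45.9 and 38.5 CPM in HH24g and 38.7, 31.1 and 39.5 CPM in HH27 (1.07 ± 0.25, 1.07). Of 18 heat shock and unfolded protein genes 0 were higher and 2, HSP90AB1 (−0.24 ± 0.10) and HSPH1 (−0.32 ± 0.12), lower, with a median of 0.01 (−0.02). Of 21 hypoxia and glycolysis genes 0 were higher and 4, HK2 (−0.72 ± 0.20), SLC2A1 (−0.48 ± 0.19), PGAM1 (−0.29 ± 0.11) and EGLN3 (−1.01 ± 0.44), lower, with a median of 0.02 (−0.03). Without overlap, 1 gene was higher and 3 lower in the injury list, 0 and 4 in the heat shock list and 2 and 5 in the hypoxia list. Over all genes these shares were 16.2% and 10.9%.

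Markers of other cell types differed most for blood. All 5 tested erythroid genes had both HH24g libraries under all HH24 libraries, as did 10.9% of all genes. The 5 log2 fold changes ran from −2.34 (HBBR, a beta globin) to −1.70 (HBAD, an alpha globin). All 5 had an unadjusted p under 0.05 (6.05% of all genes were lower at that limit). Without HH24 replicate 2 the limit was met by 4 of the 5, not by HBAD. The summed erythroid level was 4132, 3999 and 4926 CPM in HH24, 729.7 and 1354 CPM in HH24g and 448 to 2265 CPM in HH27. The part of blood cells in the other differences was not tested. Removing the haemoglobin, mitochondrial and rRNA genes before the counts were scaled left COL12A1 as the 1 gene called. That fit cannot test the part of blood cells, since it leaves their RNA in all other genes. The list held the globins HBBR, HBZ, HBA1 and HBAD and the red cell anion exchanger SLC4A1, and TSPO2, a gene of red cell precursors outside the list, measured 26.7, 70.2 and 34.2 CPM in HH24 and 4.99 and 8.86 CPM in HH24g.

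Of 12 tested endothelial genes 2, CDH5 (0.47 ± 0.18, 0.51) and CLDN5 (1.06 ± 0.46, 1.13), were higher and 0 lower at an unadjusted p under 0.05. The shares over all genes were 5.21% and 6.05%. CDH5 overlapped between the groups, and CLDN5 was over the limit without HH24 replicate 2. In 5 of the 12 both HH24g libraries were over all HH24 libraries (16.2% of all genes), and the summed level was 244, 296 and 289.5 CPM in HH24 and 352 and 379.7 CPM in HH24g. KDR, a defining receptor of endothelium, measured 27.8, 23.4 and 33.3 CPM in HH24 and 37.4 and 37 CPM in HH24g. Of 7 tested leukocyte genes LAPTM5 (1.26 ± 0.52, 1.46) was the 1 higher at that limit, but its libraries overlapped and without HH24 replicate 2 there were 0 leukocyte genes at that limit. PTPRC, the common leukocyte antigen, measured 8.56, 0 and 9.78 CPM and 15 and 15.3 CPM, and the summed level was 76, 109 and 74.3 CPM in HH24 and 115 and 104 CPM in HH24g. The part of vessels and leukocytes in the matrix and receptor values was not tested.

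Markers of the epithelium were found in both groups, and their summed levels overlapped. The grafts had been freed of epithelium before insertion, and the source of these reads was not tested. EPCAM, a surface protein of epithelial cells, measured 86.7, 101 and 84.1 CPM in HH24 and 93.3 and 84.6 CPM in HH24g, and CDH1 (E-cadherin) measured 61, 54.6 and 41.1 CPM and 42.9 and 31.8 CPM. The summed level of 16 ectoderm and ridge genes was 529, 522 and 456 CPM in HH24 and 561 and 469 CPM in HH24g, and FGF8 was the only 1 of 11 tested genes at an unadjusted p under 0.05. Of 7 tested nerve, Schwann and melanocyte genes 0 were at that limit, and the median log2 fold change was −0.20 (−0.20). Of the myogenic list only MET passed the filter, and the summed level of its 11 matched genes was 6.42 to 21.5 CPM in HH24 and 21 and 18.9 CPM in HH24g. Limb mesenchyme genes, all 12 of which were tested, summed to 1976, 1933 and 2303 CPM in HH24 and 2176 and 2125 CPM in HH24g. At an unadjusted p under 0.05, 2 were higher (PRRX1 and PDGFRA) and 5 lower (FGF10, HAND2, LHX2, LMX1B and MSX1). Without HH24 replicate 2 the counts were 2 and 6, with TBX5 also lower. The shares over all genes were 5.21% and 6.05%, and the list's median log2 fold change was −0.27 (−0.30).

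Genes of the W chromosome, which only female chicks carry, summed over 29 matched genes to 184, 405 and 533 CPM in HH24 and 240 and 492 CPM in HH24g. The pools therefore differed in W dosage within each group, and 0 of 4 tested genes of the W list differed between the groups at an unadjusted p under 0.05. In the basement membrane list 1 of 11 tested genes was higher (COL4A2, listed at 0 in all HH24 libraries and described below) and 1 lower (HSPG2, perlecan, −0.49 ± 0.20, −0.51) at that limit. Over all genes the shares were 5.21% and 6.05%. The list's median log2 fold change was −0.24 (−0.23).

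**Figure D4:**
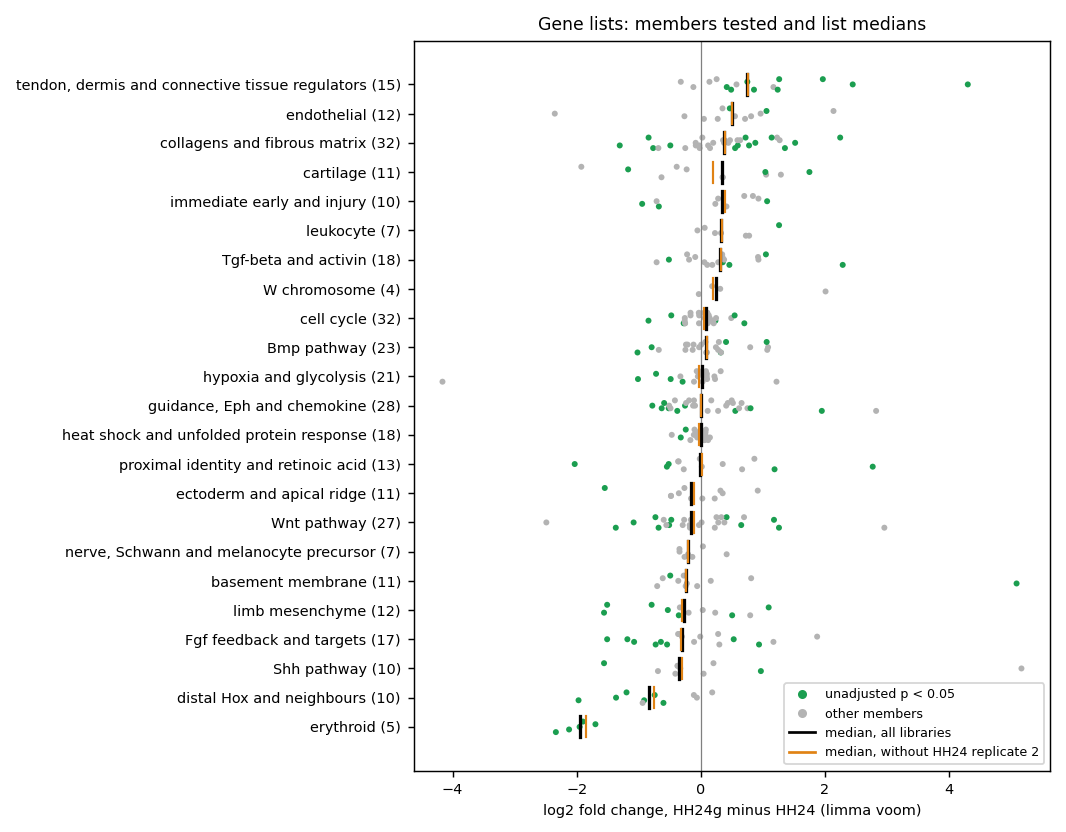
Log2 fold change of HH24g against HH24 (x axis, limma voom) for each tested member of each gene list (rows, number tested in parentheses), with members at an unadjusted p under 0.05 in green, the list median over all libraries as a black line and that without HH24 replicate 2 in orange. The erythroid list has the lowest median, followed by the distal Hox list (−0.83), and the connective tissue regulators have the highest (0.75) of the lists drawn, which are those with at least 3 tested genes.

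Some of the most extreme values came from genes listed at 0 reads in a whole group. Of the genes tested, 78 were listed at 0 in all 3 HH24 libraries, 33 in both HH24g libraries and 8 in all 3 HH27 libraries. Of the 120 DESeq2 calls, 17 were at 0 in all HH24 libraries and 6 in both HH24g libraries. Of the 14 edgeR calls, 5 were at 0 in all HH24 libraries. These were WDR81, a protein of endosomes and autophagy (41.9 and 48.6 CPM in HH24g, 55.6, 62.2 and 54.5 CPM in HH27), COL4A2, a chain of basement membrane collagen (34.4 and 33.9 and 40.2, 65.1 and 56.1 CPM), COBLL1, an actin regulator (31.4 and 28.1 and 36.4, 55.4 and 33.5 CPM), KLHL8, a ubiquitin ligase adaptor (17 and 21.7 and 21.5, 20.4 and 20.8 CPM), and KYAT3, a kynurenine aminotransferase (19 and 19.2 and 13.8, 21.4 and 16.9 CPM). COL4A1, which pairs with COL4A2 in the same collagen molecule, was not at 0 and measured 34.2, 0 and 16.6 CPM in HH24 and 12.5 and 14.4 CPM in HH24g.

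SRSF2, a splicing factor that all cells use, was also listed at 0 in all HH24 libraries and measured 39.4 and 71.2 CPM in HH24g and 77, 45.6 and 42.3 CPM in HH27. A listed 0 can thus be a value that the estimation did not assign, and no fold is given for these genes. The opposite pattern, with 0 in both HH24g libraries, was found for KPTN, a regulator of growth signalling (12.8, 23.4 and 8.8 CPM in HH24), RUNX1, a factor of blood and skeletal precursors (8.56, 15.6 and 5.87 CPM), and WWC3, a scaffold protein (38.5, 0 and 32.3 CPM in HH24 and 24.5, 16.5 and 29.6 CPM in HH27).

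The remaining genes chosen by size of difference were mixed in function. NOL8, a nucleolar protein, measured 0, 15.6 and 5.87 CPM in HH24, 78.9 and 88.6 CPM in HH24g and 72.8, 76.7 and 70.7 CPM in HH27, and VIT (vitrin), a matrix protein, 0, 0 and 12.7 CPM, 43.9 and 54.7 CPM and 75.1, 82.5 and 81.6 CPM. AKR1D1, a steroid reductase, measured 67.4, 31.2 and 52.8 CPM, 237 and 166 CPM and 276, 282 and 242 CPM (1.74 ± 0.27, 1.70). For these 3 genes the grafts were nearer to HH27 than to HH24. NOL8 and VIT were listed at 0 in part of the HH24 libraries. As for SRSF2, such a 0 can be a value that the estimation did not assign, and this was not tested.

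ANGPTL1, a secreted relative of angiopoietins, measured 10.7, 23.4 and 7.82 CPM in HH24, 72.4 and 62 CPM in HH24g and 10.3, 18.5 and 17.9 CPM in HH27 (2.74 ± 0.40, 2.80) with an adjusted p of 0.0737. PTN (pleiotrophin), a growth factor of cartilage and nerve that was singled out after its values were seen, measured 2.14, 0 and 4.89 CPM, 67.9 and 95.6 CPM and 4.98, 18.5 and 16.9 CPM. Both were higher in the 2 graft libraries than in all 6 others. SLC14A2, a urea transporter, rested on 3 reads in HH24 and 101 in HH24g, a ratio of 13.3 (exact 95% interval 4.43 to 65.6, counting error alone). ANOS1 (anosmin), an adhesion protein that modulates Fgf receptors, measured 0, 7.8 and 3.91 CPM in HH24 and 16 and 17.4 CPM in HH24g, and CALN1, a calcium-binding protein, 5.35, 15.6 and 5.87 CPM and 23 and 32.7 CPM.

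At the low end, NPTX1, a secreted pentraxin, measured 15, 23.4 and 12.7 CPM in HH24, 2 and 1.83 CPM in HH24g and 1.92, 2.91 and 1.82 CPM in HH27 (−2.82 ± 0.49, −2.78). KIRREL3, an adhesion protein, measured 47.1, 85.8 and 47.9 CPM, 22.5 and 5.19 CPM and 22.2, 27.2 and 15.3 CPM, and PTPRT, a receptor phosphatase, 27.8, 54.6 and 28.4 CPM, 0.998 and 11.3 CPM and 26.1, 15.5 and 26.2 CPM. In each the 2 graft values were under all HH24 values, as the naming rule required, but those of KIRREL3 and PTPRT differed several-fold from each other. CACNA1D, a calcium channel (24.6, 31.2 and 38.1 CPM in HH24, 7.99 and 0 CPM in HH24g) and GCNT4, a glycosyltransferase (12.8, 15.6 and 13.7 and 2.99 and 1.22 CPM) had the same order by the same rule. The listed 0 of CACNA1D can be a value that the estimation did not assign, and this was not tested.

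PLEK (pleckstrin), known from platelets and leukocytes, held a large part of all reads, with 167590.0 and 111640.0 CPM in HH24 replicates 1 and 3 and 35521 and 39392 CPM in HH24g. In HH24 replicate 2 it took 161390 of 287231 matched reads. Its log2 fold change was −2.56 ± 0.71 with an adjusted p of 0.219, and −1.86 with 0.0518 without HH24 replicate 2. PKIA, an inhibitor of protein kinase A, had the same order (−1.77 ± 0.37, −1.53). Both genes followed the order of the unmatched transcript that dominated the HH24 libraries, and whether their reads belong to the genes was not tested.

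The difference rose slightly with transcript length over the longer transcripts. The median log2 fold change in 10 bins of mean transcript length ran from −0.02 to 0.09, with the highest value in the longest bin. COL12A1, with a mean length of 10551 bases, lay in that bin. Spearman's correlation of each library's deviation from the gene mean with length was −0.00875, 0.022 and −0.0722 in HH24. In HH24g it was 0.0106 and 0.0798. A correction of each library for length left COL12A1 as the 1 call, with a log2 fold change of 1.44.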

How the data were processed

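RNA was extracted with Trizol, ribosomal RNA was depleted, and stranded total RNA libraries were sequenced. The submitters' processing notes name HISAT2 2.0.2, Salmon, limma and the build galGal4. How these were combined is not given in the sources used here. For each library the authors deposited estimated counts per RefSeq transcript, with TPM that the authors derived from them and from effective lengths. TPM and the length columns were not tested. The study left out 1 HH24 and 1 HH24g library after quality checks. The paper gives 3 replicate experiments for each condition, and the series holds 3 HH24 and 2 HH24g libraries. On these numbers the HH24g library left out by the study would be missing from the 8. The HH24 library left out would be 1 of the 3 in the main fit. The labels do not say which 1, so each of the 8 was left out in turn.

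Of 57399 transcripts, 26660 (46.4%) matched a gene of the RefSeq table for GRCg7b, used for names only. The rest stayed out of library sizes. Estimated counts were summed to 14612 genes and rounded, and edgeR's filterByExpr (minimum count 10, minimum total 15) left 9062. Genes that were scarce in HH24 and HH27 could pass this filter only through HH24g, which builds in a higher level in the grafts. Besides the connective tissue regulators named above, TGFB2, CXCR4 and ANOS1 were of this kind. Libraries were scaled with TMM (trimmed mean of M-values), and CPM values use the scaled library size. All 8 libraries entered 1 limma voom fit with 1 mean per group, and every adjusted p is Benjamini-Hochberg over all genes tested. The fold and p limits were those of the study. At these limits the paper reports many more differentially expressed genes between HH24 and HH24g than the main fit called here. Why the numbers differ was not tested. Fits were run with DESeq2 1.42.0, edgeR 4.0.16 and limma 3.58.1 in R 4.3.3. Tables and figures were made with numpy 2.4.6, pandas 2.3.3, scipy 1.17.1 and matplotlib 3.10.9 in Python 3.11.15. The fits were also run on simulated counts, drawn from a common mean per gene except in chosen genes. Such counts do not carry the zeros shared by the HH24 libraries. The outcome is not reported here, and no result rests on it.

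Genes were named by rule. Named were genes called in the main fit, in the fit without HH24 replicate 2 or by both edgeR and DESeq2 (the 12 highest and the 12 lowest). Further, among genes with a symbol, at least 10 CPM in the higher group, an unadjusted p under 0.01 and no overlap, the 12 highest and 12 lowest log2 fold changes were named, and list members at an unadjusted p under 0.05 or with a defining role. Of the genes this rule selects, 2 are not reported here. The comparison, the 24 gene lists and the rule were chosen with earlier results of these data known. The alternatives were other tests, scaling, filters, sample weights, sample sets, a replicate block, a length correction and leaving out libraries. No promoter or protein sequences were used here.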

Additional observations from a re-analysis of the deposited data

Results flagged for a closer look

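Reads in transcripts that matched no gene were outside the comparisons of the report. When each was added to the limma voom fit as a feature of its own, 595 of 8558 such transcripts had an unadjusted p under 0.05. The transcripts were screened only for a higher level in the grafts, with both HH24g levels over all HH24 levels. Those lower in the grafts were not sought. The transcript XM_015276674.1 met the screen, with 16, 4 and 15 estimated reads in HH24, 136 and 217 in HH24g and 7.1, 3 and 15 in HH27. Its log2 fold change against HH24 was 2.02 ± 0.23 (standard error), with an adjusted p of 0.228. It was higher in 2 of 2 graft libraries than in all 6 others, of which the order against HH24 was fixed by the screen. The gene to which this transcript belongs is not named in the table used here.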

How the results depend on the processing

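The 1 call of the limma voom fit stayed at 1 with the size factors of DESeq2, with the length correction, without haemoglobin, mitochondrial and rRNA genes and with no limit on fold change. The count became 0 with no filter on low counts, with only the HH24 and HH24g libraries (with and without HH24 replicate 2) and with the unmatched transcripts added, and 20 with at least 10 counts in every library. Sample quality weights gave 2 calls, with and without HH24 replicate 2, edgeR 14 and 11, and DESeq2 120 and 115. Leaving out 1 library gave between 0 and 20 calls, with 3 without HH24 replicate 3, where ASB8, MAP3K1 and TRIL were called and COL12A1 was not, and 20 without HH27 replicate 3. The cause of these shifts was not tested. The stricter filter leaves 2635 genes. Genes without overlap, 1468 higher and 984 lower, became 2170 to 2411 and 1545 to 1776 with 1 library left out, since fewer libraries overlap less often, and 1417 and 1026 with the size factors of DESeq2.

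Replicate numbers were not taken to pair the samples in the main fit, since the labels give no shared animal or day. Deviations of same-numbered HH24 and HH24g libraries from their group means correlated by −0.0282 and −0.0296. These values cannot decide whether the numbers pair libraries, because the deviations of the 2 HH24g libraries mirror each other. HH24g and HH27 libraries were not compared in this way. With the replicate number as a block 3 genes were called (COL12A1, HAND2 and VEGFD), and 4 with the length correction added.

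Of 163 named genes, 8 changed sign in some of 24 settings. EVX2 reversed to 0.0701 with sample quality weights without HH24 replicate 2 and 0.0062 with only HH24 and HH24g without it, and ran from −1.22 to 0.789 with 1 library left out. TWIST1 reversed to −0.00678 with DESeq2, −0.00757 with sample quality weights and −0.0105 with only HH24 and HH24g, each without HH24 replicate 2, and ran from −0.0315 to 0.113 with 1 library left out. SPRED1, with a log2 fold change near 0, reversed to 0.00398 with no filter on low counts, 0.0241 with at least 10 counts in every library, 0.0155 with the replicate block, 0.0028 with the length correction added, 0.0239 with the unmatched transcripts added and, without HH24 replicate 2, 0.0159 with edgeR, 0.00263 with DESeq2, 0.00917 with sample quality weights and 0.00385 with only HH24 and HH24g, and ran from −0.101 to 0.0437 with 1 library left out. DKK3 reversed to −0.0699 with the replicate block, alone and with the length correction, and ran from −0.242 to 0.551 with 1 library left out. With 1 library left out EPCAM ran from −0.0338 to 0.108, LHX9 from −0.00224 to 0.465, MKI67 from −0.0373 to 0.374 and MSX2 from −0.202 to 0.0972. List medians kept their sign except for nerve (−0.478 to 0.165), proximal identity, guidance, injury (−0.0219 to 0.698), heat shock, hypoxia and W chromosome genes. Depth limits the comparison most in HH24 replicate 2, where 1603 tested genes are listed at 0.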
